A study of Mus musculus with 6 samples.

Results

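Of the 8425 hnRNP UL1 peaks listed for resting macrophage-like cells, 2754 had a nearest gene that carried an Ensembl gene ID but no gene name. The rule that chose these 2754 peaks used only the missing name and no measured height, and it was set with earlier results of these data known. They were assigned to 1897 unnamed genes, and the other 5671 peaks to 3513 named genes. The cells were RAW 264.7, an established mouse macrophage line, either untreated (0 h) or given lipopolysaccharide (LPS, a component of the outer membrane of Gram-negative bacteria) at 100 ng/ml for 4 or 10 h. ChIP used an antibody to hnRNP UL1, and input DNA was sequenced at each time. Each time had 1 ChIP library, so no value below has a replicate check and no difference was tested between times. The 3 peak tables held 18624 peaks in all. Only 29 of the 9046 peaks at 4 h and 7 of the 1153 at 10 h had an unnamed nearest gene. The lists for 4 h and 10 h end at gene IDs below most unnamed ones, so these counts cannot be set against the 0 h count.

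hnRNP UL1 is a nuclear protein of the hnRNP U family, which binds RNA and carries a SAP domain, a fold known for binding DNA. Chromatin immunoprecipitation (ChIP) recovers DNA that lies close to such a protein, directly or through RNA and partner proteins. Genes without a name in an Ensembl-based annotation are mostly long noncoding RNA (lncRNA) models, processed pseudogenes and small RNAs. Many of them lie inside the introns of protein-coding genes, between distant coding genes, or head to head with a coding gene at a shared, CpG-rich start. A peak assigned to an unnamed gene may therefore sit in a well-studied locus that a list of gene names does not show.

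Sequences are shown first for RefSeq starts with a peak of an unnamed nearest gene within the 250 bases upstream. Each peak is a point 2 bp wide, so the sequences show DNA before the start, not the DNA that a peak covers. Zfas1 and Snhg5, which host small nucleolar RNAs, are themselves unnamed in the deposited table. Hnrnpf (a splicing regulator), Vps4a (an ATPase of the ESCRT membrane-remodelling machinery), Zranb1 (a deubiquitinase) and Rabggtb (a subunit of Rab geranylgeranyl transferase) are coding genes whose start faces an unnamed gene on the other strand. Each run is the 250 bases before the start on the gene's own strand, from RefSeq on GRCm38.p6. Capitals mark the GC box GGGCGG, the box known as CCAAT and the element TATAAA, each with their reverse complements where these differ.
Zfas1 promoter, chr2:167062684-167062933, plus strand: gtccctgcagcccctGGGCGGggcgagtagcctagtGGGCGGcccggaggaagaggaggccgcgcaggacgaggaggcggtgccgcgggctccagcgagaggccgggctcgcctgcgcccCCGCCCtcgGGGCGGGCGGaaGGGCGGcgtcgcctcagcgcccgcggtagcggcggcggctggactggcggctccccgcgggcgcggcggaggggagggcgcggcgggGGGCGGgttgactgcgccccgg
Snhg5 promoter, chr9:88522898-88523147, minus strand: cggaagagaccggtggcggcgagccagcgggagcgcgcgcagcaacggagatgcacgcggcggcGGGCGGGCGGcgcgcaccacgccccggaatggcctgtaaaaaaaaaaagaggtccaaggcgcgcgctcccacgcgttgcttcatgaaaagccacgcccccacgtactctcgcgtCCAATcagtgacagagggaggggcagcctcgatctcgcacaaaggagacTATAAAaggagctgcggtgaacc
Hnrnpf promoter, chr6:117907554-117907803, plus strand: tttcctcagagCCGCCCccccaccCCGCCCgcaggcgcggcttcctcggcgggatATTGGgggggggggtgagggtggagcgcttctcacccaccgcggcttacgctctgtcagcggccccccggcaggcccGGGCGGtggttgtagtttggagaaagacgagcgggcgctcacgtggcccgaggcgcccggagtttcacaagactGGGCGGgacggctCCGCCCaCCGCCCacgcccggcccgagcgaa
Vps4a promoter, chr8:107031019-107031268, plus strand: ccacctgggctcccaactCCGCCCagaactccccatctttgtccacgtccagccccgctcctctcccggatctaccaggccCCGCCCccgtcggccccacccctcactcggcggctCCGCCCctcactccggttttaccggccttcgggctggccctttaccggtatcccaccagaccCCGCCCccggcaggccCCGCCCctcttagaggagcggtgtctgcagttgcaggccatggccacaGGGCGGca
Zranb1 promoter, chr7:132930926-132931175, plus strand: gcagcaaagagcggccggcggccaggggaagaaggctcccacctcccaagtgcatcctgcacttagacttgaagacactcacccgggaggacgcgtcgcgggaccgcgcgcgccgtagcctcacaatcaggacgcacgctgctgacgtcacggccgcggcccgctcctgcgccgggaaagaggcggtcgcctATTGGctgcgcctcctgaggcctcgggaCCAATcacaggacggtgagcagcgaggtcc
Rabggtb promoter, chr3:153912967-153913216, minus strand: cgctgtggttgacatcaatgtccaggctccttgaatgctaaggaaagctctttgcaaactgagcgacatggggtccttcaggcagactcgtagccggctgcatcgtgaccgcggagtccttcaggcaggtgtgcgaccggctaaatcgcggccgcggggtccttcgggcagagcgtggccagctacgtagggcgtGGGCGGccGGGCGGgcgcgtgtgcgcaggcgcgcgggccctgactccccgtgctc

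Mature miRNA sequences from RefSeq are shown for unnamed genes that proved to be miRNA hairpins, chosen because they have roles known in macrophages or share a seed. Capitals mark the seed, bases 2 to 8, which pairs with target mRNAs.
miR-21a-5p: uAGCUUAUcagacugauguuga
miR-21c: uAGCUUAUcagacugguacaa
miR-29a-3p: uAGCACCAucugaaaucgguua
miR-142a-5p: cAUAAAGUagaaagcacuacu
miR-34a-5p: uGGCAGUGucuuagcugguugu
miR-511-3p: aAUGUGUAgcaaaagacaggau
let-7d-5p: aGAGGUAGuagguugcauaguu
let-7i-5p: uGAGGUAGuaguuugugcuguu

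Fewer of the peaks with an unnamed nearest gene lay at a start, and more were classed as distal intergenic. The promoter class (within 1 kb of the start of the nearest transcript) held 328 of 2754 peaks, or 11.9% (exact 95% interval 10.7 to 13.2), against 1983 of 5671, or 35.0% (33.7 to 36.2), of the peaks with a named nearest gene. The ratio of these shares was 0.341 (0.302 to 0.383). Distal intergenic peaks made up 36.8% (35.0 to 38.6) against 14.2%, a ratio of 2.58 (2.35 to 2.84). This class follows the deposited annotation, and some of its peaks lie inside a RefSeq gene span. Introns held nearly equal shares, 35.1% (33.4 to 37.0) and 34.5%, with a ratio of 1.02 (0.942 to 1.10). These intervals are Clopper-Pearson or exact conditional intervals and cover counting error only, and neighbouring peaks are not independent.

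Among the smaller classes, the 3′ UTR differed in share between the kinds. It held 24 peaks (0.871%) against 105 (1.85%), a ratio of 0.471 (0.289 to 0.739). Shares 1 to 2 kb from a start were 6.43% and 6.61%, and those 2 to 3 kb away were 5.45% and 4.71%. Exons held 1.31% and 1.27%. Up to 3 kb from a start, the intervals of the 2 kinds separated in the innermost class and overlapped in the others.

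**Figure D1:**
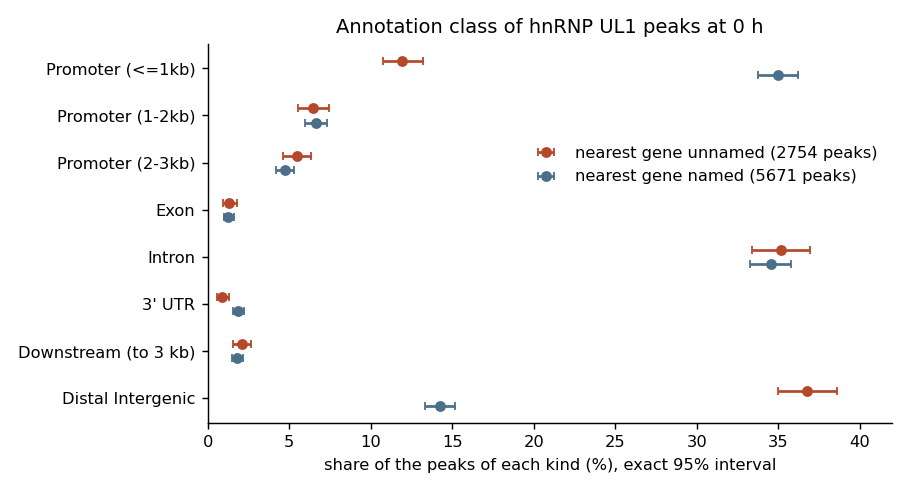
Share of peaks (x axis, percent) in each annotation class (y axis) at 0 h, for peaks with an unnamed nearest gene and peaks with a named one; bars are exact 95% intervals for counting error. The kinds separate at promoters (11.9% against 35.0%) and in distal intergenic DNA (36.8% against 14.2%), and overlap in introns.

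The median distance to the nearest start was 10184 bp for the unnamed kind and 3915 bp for the named. A distance above 100 kb was recorded for 4.43% and 0.758% of peaks, and the farthest peak of the unnamed kind lay 379028 bp from its start. Upstream positions were about as common in both kinds, at 45.9% and 43.5%. Both class and distance refer to whichever transcript is nearest, so they also depend on how long and how dense the gene models are. The nearest unnamed transcripts had a median length of 1398 bp, against 18157 bp for named ones, and 13.3% of the unnamed kind lay inside the nearest transcript against 44.1%.

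**Figure D2:**
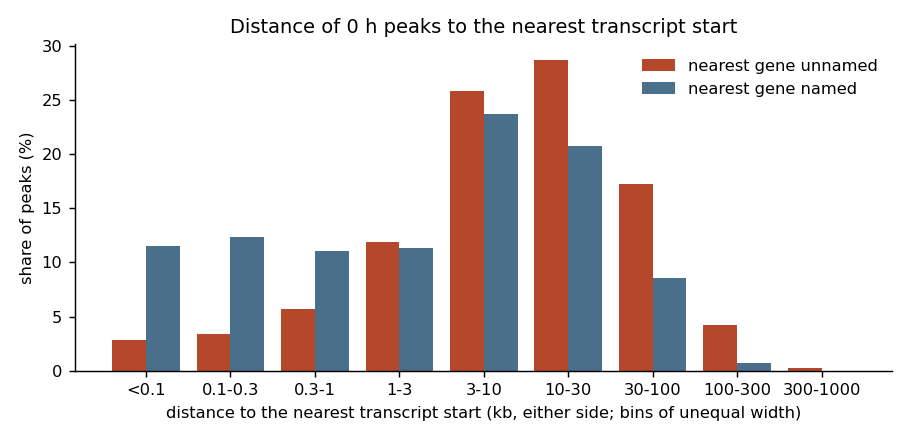
Share of peaks (y axis, percent) by distance to the nearest transcript start (x axis, kb, bins of unequal width) at 0 h. The named kind is higher in the 3 bins within 1 kb, and the unnamed kind is higher in every bin beyond 3 kb.

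Most of these peaks were nonetheless inside a RefSeq gene span, counting spans with placeholder symbols such as Gm30926 and spans of the unnamed genes themselves. A RefSeq gene span held 1503 of the 2754 peaks (54.6%), and a protein-coding span held 1064 (38.6%). These shares were lower than the 77.4% and 74.4% of the peaks with a named nearest gene. Of 1004 peaks that the authors annotated to an intron, exon or UTR, 828 (82.5%) lay in a gene other than the nearest one, compared with 11.9% of 2030 such peaks of the named kind. The first intron took 30.7% of intron peaks with an unnamed nearest gene and 34.5% of the others.

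Matching spans to RefSeq gave many unnamed genes an identity. An overlap of at least 90% of the longer span was found for 514 of the 1897 genes (27.1%), which carried 747 peaks. The RefSeq gene table gives no strand, so these span matches were made on position alone. They comprised 203 lncRNAs, 146 pseudogenes with 5 more that are transcribed, 63 miRNAs, 44 small nuclear RNAs, 41 small nucleolar RNAs, 7 guide RNAs and 5 coding genes. Only 17 of the 203 lncRNAs had a symbol other than a Gm, Rik or LOC placeholder.

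Several of those 17 are studied RNAs. Chaserr, an lncRNA next to the chromatin remodeller gene Chd2, had 2 peaks, the nearer 31 bp from its start. Gt(ROSA)26Sor, known as the locus used for transgene insertion, also had 2, the nearer at 723 bp. The snoRNA hosts Snhg15 and Zfas1 each had 1 peak, at 349 and 4 bp. Outside the lncRNAs, the small nuclear RNA gene Rn7sk encodes 7SK RNA, which holds the elongation factor P-TEFb inactive, and had 1 peak 96 bp from its start.

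The kinds of unnamed gene differed in where their peaks lay. Peaks of the matched lncRNAs were within 1 kb of the start in 14.8% (11.0 to 19.2) of 311 cases, and those of pseudogenes in 6.51% (3.61 to 10.7) of 215. Distal intergenic positions took 44.7% of lncRNA peaks, 49.8% of pseudogene peaks and 31.2% of small RNA peaks. A protein-coding span held 54.4% (47.5 to 61.2) of the 215 small RNA peaks, 30.2% of pseudogene peaks and 20.3% (15.9 to 25.2) of lncRNA peaks. The intervals of the small RNA and lncRNA shares do not overlap.

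Some of the promoter peaks lay near the start of a coding gene. Of 323 promoter peaks that could be placed against RefSeq promoter starts, 76 (23.5%) had a protein-coding start within 1 kb, and the other promoter peaks had none that near. The share was 70.3% for promoter peaks of the named kind, a gap that the choice of peaks by named or unnamed nearest gene largely fixes. In 67 of the 76 (88.2%, 78.7 to 94.4) the coding gene and the unnamed gene ran on opposite strands. The 9 on the same strand are not all separate pairs. They include Gm12500 and 1810058I24Rik, which the unnamed gene itself matched over 99.9% and 95.9% of the span. At Irak1 the unnamed gene is the hairpin Mir5132. The 76 peaks touched 73 coding genes. They include Yy1, a zinc-finger transcription factor, at 993 bp, Kmt2c, a histone H3 lysine methyltransferase, at 587 bp, and Ddit3, the stress-response factor CHOP, at 473 bp from the coding start.

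Genes for RNA-binding proteins were among these coding genes. Hnrnpf had a peak 232 bp upstream of its start and 186 bp downstream of the start of the unnamed gene on the other strand. Fxr1, a relative of the fragile X protein, had one at 560 bp. Pcbp1, a poly(C)-binding protein, had 2, at 669 and 773 bp. These examples were picked from the 73 after their distances were seen.

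The peak at Zfas1 lay 5 bp upstream of the RefSeq start of that lncRNA and 86 bp from the start of Znfx1, an RNA helicase-like gene on the other strand. At Snhg5 the peak lay 237 bp upstream, in the window printed above. The peaks at Vps4a, Zranb1 and Rabggtb lay 169, 171 and 194 bp upstream of the coding start. The same peaks lay 87, 97 and 65 bp from the start of the unnamed gene on the other strand, so both starts of each pair were close.

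Counting from 250 bases before to 50 after each RefSeq start, 36 promoter windows held 32 peaks of the unnamed kind, with 14 coding and 20 lncRNA genes. In 4 of the 36 the peak lay downstream of the start, by at most 43 bp. Of the 15 coding windows, 12 were on the strand opposite the unnamed gene, while 19 of the 21 lncRNA windows were on its strand. The GC box GGGCGG was present on either strand in the 250 bases before the start for 18 of 36 windows (50%), against 32.7% of all 32851 RefSeq starts. CCAAT was present in 27.8% against 33.8%, and TATAAA in 11.1% against 12.4%. GAGGAAGT, a site form of the macrophage factor PU.1, was in 0 of 36 windows and in 2.44% of all. At that share, a count of 0 is near the background for 36 windows. The same 250 bases held a median of 21.5 CG dinucleotides against 6 over all promoters, with 63.8% against 52.4% G and C. Some of the 36 windows overlap, as those of Capn15 do, and the background is all starts, with or without a peak. A motif match describes letters in the window only.

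Among miRNAs, 56 unnamed genes had exactly the span and strand of a RefSeq hairpin, of 1005 hairpins in the table. They carried 82 peaks, of which 16 were within 1 kb of the hairpin start and 45 lay in a coding gene. All miRNA distances and promoter classes count from the hairpin, and where transcription starts was not examined. Of the 56 miRNAs, 45 had 1 peak. Their 88 mature sequences had 86 distinct seeds. The pairs that share one are AGCUUAU of miR-21a-5p and miR-21c, and GAGGUAG of let-7d-5p and let-7i-5p.

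Mir21c had 9 peaks, the most of any miRNA. They ran from 3588 bp upstream of the hairpin to 283168 bp beyond its start, through the gap between Pard3 and Nrp1, and 1 of them lay within 10 kb of the hairpin. Mir21a, whose product is among the miRNAs that LPS is known to raise in macrophages, had 3, at -376, 1225 and 2266 bp. All 3 were within the promoter classes, which here count from the hairpin start, in contrast to the 9 of its seed relative. Of the 3 peaks of Mir21a, 1 lay inside the coding gene Vmp1.

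Mir29a had 6 peaks, at 650, 1942, 4154, 18791, 27996 and 49476 bp from the hairpin start, all on the downstream side. Mir142, a miRNA of blood cells, had 1 peak 36 bp from its start, and Mir142b, annotated on the other strand of the same site, had 1 at -1722 bp. Mirlet7i had 1 peak at 367 bp and Mirlet7d 1 at 2447 bp. Mir34a, a target of p53, had 2 peaks, at -3719 and -3397 bp.

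Other miRNAs stood for the coding gene around them. The 2 peaks of Mir511 were 31610 and 32092 bp from the hairpin, and both lay in Mrc1, the mannose receptor of macrophages. The 3 peaks of Mir7227, between 9502 and 11988 bp, were all in introns of Arid1a. The 4 peaks of Mir3075 were in introns of Zmiz1. Mir5132, with 1 peak at -21 bp, lay in Irak1, a kinase of Toll-like receptor signalling.

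**Figure D3:**
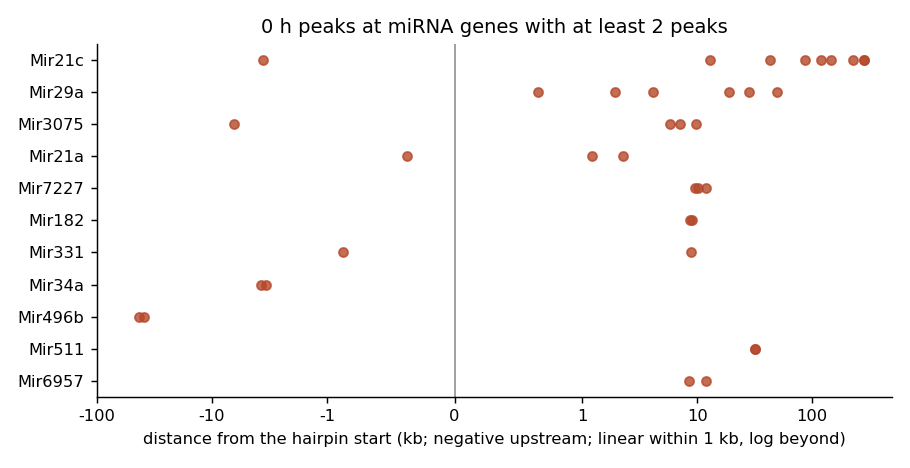
Position of each 0 h peak (points) relative to the hairpin start (x axis, kb; negative is upstream; linear within 1 kb, log scale beyond) for the miRNA genes with at least 2 peaks (y axis). The 3 peaks of Mir21a lie within 2266 bp, whereas those of Mir21c reach 283168 bp.

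Across genes, 1467 of the 1897 (77.3%) had a single peak, and 51 with at least 5 held 367 peaks (13.3%). There were 6 genes with 10 or more, which had 88 peaks together and are written here by ID. ENSMUSG00000115875 led with 20. It is a 240 bp model at chr15:67873828-67874067, and 19 of its peaks were distal intergenic at a median of 145438 bp from its start. The nearest coding gene, the zinc-finger gene Zfat, lay 209647 bp away.

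ENSMUSG00000102069 had 17 peaks on the same chromosome, 7 of them in its introns. Its span equals that of the lncRNA 1700012I11Rik (chr15:67226769-67377094). ENSMUSG00000116519 had 10, of which 8 were distal intergenic. With ENSMUSG00000115875 these genes filled the gap between St3gal1, a sialyltransferase gene, and Zfat. That gap of 907 kb held 47 peaks, all of them with an unnamed nearest gene, or 51.8 per Mb. The gap was picked for its count of such peaks, which favours a high share.

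The other leaders lay in or beside coding genes. All 19 peaks of ENSMUSG00000114967 (chr14:22775018-22775244) were inside Lrmda, a leucine-rich repeat gene linked to melanocyte differentiation. ENSMUSG00000093897 had 11 peaks, 7 of them inside Litaf, an endosomal membrane protein gene named for its induction by LPS. ENSMUSG00000116725 matched the lncRNA Gm29686 over 90.5% of its span and had 11 peaks in the gap between Ccdc54 and Cblb, a ubiquitin ligase gene 43943 bp away.

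The 6 genes with 9 peaks were of several kinds. ENSMUSG00000097715 matched Gpr137b-ps, a transcribed pseudogene of a lysosomal membrane protein gene. Its peaks extended over 39.0 kb, each at most 7472 bp from the start of the nearest of its transcripts. ENSMUSG00000083510 matched the pseudogene Gm13478 beyond Zeb2. ENSMUSG00000098983 lay 246681 bp from Runx1, with all 9 peaks distal intergenic. ENSMUSG00000088580, a 118 bp model within Pard3, had its 9 peaks 105727 to 300344 bp away, all outside that gene. ENSMUSG00000106586 had all 9 in the RefSeq span of Arhgap24, although 3 of them were classed as distal intergenic. ENSMUSG00000099326 is Mir21c. Of the genes with 8 peaks, ENSMUSG00000081783 had all in Arid1b, ENSMUSG00000082272 had 7 of 8 in distal intergenic DNA, with the potassium channel gene Kcnj2 199275 bp away, and ENSMUSG00000044645 lay 10194 bp from Plcl2.

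Gaps between neighbouring coding genes were then counted, a description chosen after the peaks of chromosome 15 were seen. Of 860 gaps with at least 1 peak of the unnamed kind, 14 had 10 or more, with 257 such peaks. The gap from Zeb2, a transcription factor gene of myeloid cells, to Acvr2a held 36 of 38 peaks, over 3697 kb. Klf14 to Mkln1, the gap with Mir29a and Lncpint, held 21 of 24 over 440 kb. Beside Runx1, a transcription factor of blood development, 18 of 18 peaks lay in the 757 kb up to Setd4. Map4k3 to Tmem178 had the densest row of the 14, with 15 of 15 in 216 kb, or 69.5 per Mb. In 6 of the 14 gaps every 0 h peak was of the unnamed kind. The 14 were chosen by their count of such peaks, and that choice favours high shares. Over all 0 h peaks, 2754 of 8425 were of this kind.

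**Figure D4:**
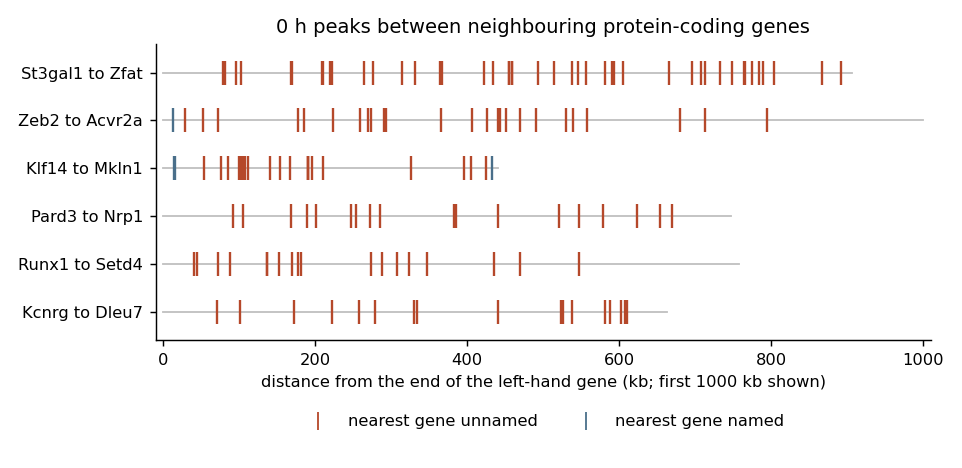
Position of 0 h peaks (ticks) along the 6 gaps between neighbouring protein-coding genes with the most peaks of the unnamed kind; the x axis is distance from the end of the left-hand gene in kb, cut at 1000 kb. The 47 peaks from St3gal1 to Zfat begin 79.1 kb from St3gal1 and continue to 891 kb of the 907 kb, and the few named-gene peaks in the part shown lie near gap ends.

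Protein-coding genes that held such a peak numbered 667 of 21887 (3.05%), and 480 of them held 1. Lrmda held the most, 28 of its 46 peaks at 0 h, which were assigned to 5 unnamed genes. Its 28 peaks were spread from position 22022439 to 22931254 of chromosome 14, with 25 in introns. Of these, 10 also fell in the lncRNA Gm30926, which lies inside Lrmda.

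Arid1b followed Lrmda, and Zmiz1 was also among the leading hosts. Arid1b, a subunit of the SWI/SNF (BAF) remodelling complex, held 13 peaks of 14, of which 12 were intronic and 9 lay in a run of 48.3 kb. Zmiz1, a PIAS-like coregulator, held 10 of 22. Arid1b thus had 1 peak at 0 h with a named nearest gene, and Zmiz1 had more of that kind than of the other.

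Several hosts among the leading 15 encode proteins that act on small GTPases. This grouping was made from the ranking itself, and the share of such genes over all coding genes was not counted. They are long, from 207 kb (Abr) to 698 kb (Arhgap24), against a median of 17.2 kb over all coding genes. The part of gene length was not tested. The GTPase-activating protein genes Arhgap10 and Arhgap24 held 11 of 11 and 9 of 12, and Abr, which acts on Rac, held 6 of 8. Rgl1, a Ral exchange factor, held 9 of 37, and Agap1, which acts on Arf, held 6 of 11. Snx29, a sorting nexin gene, held 9 of 14. Arhgap10 thus had no 0 h peak with a named nearest gene.

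Litaf held 7 of 15. Among noncoding hosts, Neat1, the scaffold of nuclear paraspeckles, held 7 of 7, Lncpint, an lncRNA induced by p53, held 8 of 8, and Gpr137b-ps held 8 of 8. Gpr137b-ps is itself unnamed in the deposited data, as are models within Neat1 and Lncpint. The choice of peaks by unnamed nearest gene thus largely fixes these counts. In 364 of the 667 coding genes that held such a peak, every 0 h peak was of the unnamed kind. Only 25 of the 364 had at least 3 peaks.

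**Figure D5:**
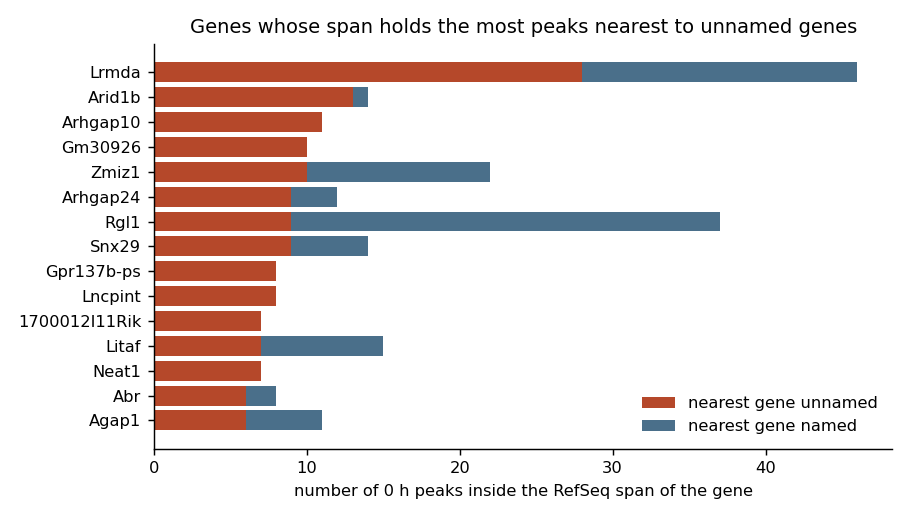
Number of 0 h peaks (x axis) inside the RefSeq span of the 15 genes that hold the most peaks of the unnamed kind, split by whether the nearest gene was unnamed or named. Lrmda holds 28 of 46, Arid1b 13 of 14, and Arhgap10, Neat1 and Lncpint hold only the unnamed kind.

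Peaks closer together than 10 kb formed 16 clusters of at least 5, with 107 peaks (3.89%). The longest was in Lrmda, with 13 peaks over 64.7 kb. Litaf had 12 over 23.8 kb, from inside the gene to beyond it, and its 3 intron peaks lay in intron 1. Zmiz1 had 8 over 25.5 kb and Mtss1, a membrane-bending protein gene, had 6 over 18.7 kb.

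The densest of the 16 was at Neat1, with 8 peaks in 9.04 kb, or 1 for each 1.13 kb. Of its peaks, 6 were assigned to ENSMUSG00000098543, at 13, 149, 998, 1834, 2713 and 3202 bp from that start, and another lay 80 bp from the start of ENSMUSG00000092274. Malat1, the neighbouring lncRNA of nuclear speckles, held 1 peak, 327 bp from the start of an unnamed model. The remaining clusters of 5 or 6 included one at Mir29a (6 in 11.8 kb), with 3 peaks assigned to Mir29a and 3 to ENSMUSG00000097998. Others were at Rgl1 (5), Abr (5 in 9.39 kb) and Gpr137b-ps (5 in 7.74 kb).

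Smaller clusters also lay at Apobec1 and Rbm47, named here after their values were seen. Apobec1, the cytidine deaminase that edits mRNA, held 4 of the 5 peaks of a cluster of 8.31 kb. Rbm47, an RNA-binding cofactor of Apobec1, held all 5 of another in 7.64 kb. Akap13, a kinase anchor protein gene, and Fnip2, a folliculin partner, held 5 each.

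Gene lists for this cell type were counted against the same spans. The lists were drawn up with earlier results of these data known, so their shares are descriptive only. Chromatin and transcription regulators held such a peak in 12 of 33 genes (36.4%), with 42 peaks, led by Arid1b, Zmiz1, Foxp1 (4 of 17) and Arid1a (3 of 3). Their median span was 108 kb, against 17.2 kb over all coding genes, of which 3.05% held one. Neuronal genes had a longer median, 345 kb, and 0 of 10 held one. The part of gene length in these counts was not tested.

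Macrophage identity genes held one in 2 of 24, Runx1 with 3 of its 12 peaks and Mrc1 with 2 of 3. Lysosome genes did in 3 of 30, namely the protease Ctss with 2, Mitf and Npc1. Toll-like receptor 4 and NF-kB genes did in 2 of 27, Irak1 and the ubiquitin-binding inhibitor Tnip1, with 1 each. These small counts stand beside 3.05% of all coding genes. Early LPS-induced genes (0 of 37, median span 6.86 kb) and interferon response genes (0 of 20, 15.6 kb) held none, and at 3.05% a count of 0 or 1 is near the background for lists of this size. T and B cell genes (0 of 10) and hepatocyte genes (0 of 8) also held none.

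The hnRNP and splicing factor genes held one in 3 of 28, with Mbnl1 at 2 of 7, Hnrnpf at 1 of 6 and Srsf7 at 1 of 2. Listed lncRNAs did in 3 of 19, with Neat1 at 7, Pvt1, the neighbour of Myc, at 3 of 3, and Malat1 at 1 of 1. Over all RefSeq lncRNA genes, 377 of 12727 (2.96%) held one.

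By chromosome, the share of 0 h peaks with an unnamed nearest gene ran from 17.0% on chromosome 19 to 45.6% on chromosome 13.

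The treated cells could be compared for few of these genes. The tables are ordered by gene ID, and those of 4 h and 10 h end at ENSMUSG00000027620 and ENSMUSG00000022416, below most unnamed IDs. Within the IDs that all tables reach, unnamed genes took 2 of 1312 peaks at 0 h, 9 of 5298 at 4 h and 7 of 1152 at 10 h. Over the longer ID range of the 4 h table they took 9 of 2225 at 0 h (0.404%, 0.185 to 0.766) and 29 of 9045 at 4 h (0.321%, 0.215 to 0.460). The intervals overlap.

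One gene had peaks at all times. ENSMUSG00000006462 (chr2:167691177-167729172) lies 745 bp from Cebpb, a transcription factor gene of macrophages, and had 1, 5 and 6 peaks at 0, 4 and 10 h. The 0 h peak was 19243 bp from the start of the nearest of its transcripts. At 4 h the peaks were at -57, 717, 1052, 4193 and 29848 bp, and at 10 h at -435, 1779, 2493, 2847, 3229 and 4504 bp. Peaks within 1 kb of such a start were thus listed at 4 h and 10 h but not at 0 h. The gene was named because it had peaks at all times. Over the IDs that all lists reach, 1312, 5298 and 1152 peaks were listed at 0, 4 and 10 h, so the lists differ in length.

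ENSMUSG00000025922, which matched the pseudogene Rpl7-ps8 over 90.7% of its span, had 6 peaks at 0 h and 9 at 4 h. They ranged from -63513 to 1371 bp and from -50885 to 11152 bp. ENSMUSG00000024205, inside Abr, had 1 and 3. Its 0 h peak at -11409 bp had a 4 h neighbour at -11579 bp, the 1 case among 9 comparable 0 h peaks with a 4 h peak within 500 bp. For both genes the 4 h list is the longer, with 9045 peaks over its ID range against 2225 at 0 h.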

How the data were processed

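The members and lists were chosen with earlier results of these data known. The 3 ChIP peak tables were read; input samples were not used here. The submitters' processing notes name MACS2 2.1.0, BWA 0.7.12 and CASAVA 1.8, and the mouse build GRCm38 (mm10); settings are not given in the sources used here. The deposited tables give, per the file headers, each peak's position and annotation class, the nearest transcript with its gene ID and name, and the distance to its start. Each peak is a point 2 bp wide with no height, q-value or read count, so depth is unknown and weak and strong peaks count alike. The last row of the 4 h table is incomplete and was dropped.

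Members were rows of the 0 h table with a gene ID and no name. Positions were compared with RefSeq gene spans (GRCm38.p6). Shares have exact 95% binomial intervals (Python 3.11.15, pandas 2.3.3, scipy 1.17.1), and the counting was tested on simulated data. With 1 library per group no test between times was made. The text names the 15 unnamed genes with most peaks, the 15 RefSeq genes holding most, the 10 largest clusters and up to 4 genes of each list. Other genes named, the gaps between coding genes, the miRNA match, the printed sequences and the motifs were chosen after values were seen. Alternatives covered the members, the promoter limit, the gene spans, the cluster gap and the distance between times.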

Additional observations from a re-analysis of the deposited data

How the results depend on the processing

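The shares of promoter, intron and distal intergenic peaks moved by less than their counting interval when peaks with Gm or Rik names were added (2908 peaks), when peaks closer than 1000 bp were merged (2669 left), and without the 4 unnamed genes of the chromosome 15 region (an alternative chosen after seeing the data). The share within 1 kb of a start was 8.10% with a limit of 500 bp and 16.6% with 1 peak per unnamed gene. The share inside a RefSeq gene was 38.6% for protein-coding genes alone and 68.4% with spans widened by 5 kb. Clusters numbered 7 with gaps up to 5 kb, 38 with gaps up to 20 kb, and 69 when every 0 h peak was counted. Broader runs, with gaps up to 50 kb and at least 10 peaks, numbered 15. With a span match of 50%, chosen after seeing the data, 794 genes had a RefSeq model. Of all members, 0.0726% lay within 500 bp of any 4 h peak, a value that the shorter ID range of that table limits. Over the IDs that all tables reach, the share near a 4 h or 10 h peak was 0 of 2 at 200, 500 and 1000 bp. Depth is unknown, so an absent peak does not show absent binding. No paired analysis was possible because each time had 1 ChIP library and no replicate numbers.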
